A study of Mus musculus with 6 samples.

Results

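Neighbouring distal peaks are H3K27ac peaks that have no OCT4 binding site of their own and lie away from promoters, but sit beside a peak that does have a site. A peak counts as having a site, and is called an OCT4-site peak, if the authors mark it as within 1 kb of an OCT4 site. The OCT4 site can thus lie outside that peak. Gaps run to the edge of the OCT4-site peak, so they are not distances to OCT4 binding. A peak was taken as neighbouring if the authors' table marks it as having no OCT4 site within 1 kb, if no GENCODE vM21 transcript starts within 1 kb of it, and if an OCT4-site peak lies within 10 kb on the same chromosome, counted from edge to edge. Of 31131 peaks in the files, 1527 met this rule. Of these, 1338 had an RPKM (reads divided by the length of the peak and by the size of the library) of at least 0.5 in either condition and were analyzed, and 189 were below this threshold. The rule itself uses position and the OCT4 mark, while the threshold uses the pooled H3K27ac of both conditions. The authors called all peaks on pooled uninduced reads, so regions acetylated only after IAA are absent, which favours falls over rises.

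H3K27ac was measured by chromatin immunoprecipitation sequencing in O4AID mouse ESCs before and after rapid removal of OCT4. Its change is described here by the gap to the nearest OCT4-site peak. Libraries came from 3 independent immunoprecipitations of uninduced, untreated cells and 3 of cells given the auxin IAA (indole-3-acetic acid) at 500 μM for 1.5 h. Both groups share the 129SV strain and the same alleles, with Oct4-/- at the endogenous gene and the transgenes TetOFF Oct4, CAG Oct4AID and CAG Tir1. In these cells, OCT4 fused to an auxin-inducible degron and the Tir1 protein that directs its degradation are both driven by the constitutive CAG promoter, and doxycycline keeps the wild-type Oct4 transgene silent in both groups. Cells were grown in N2B27 with PD03, Chiron and LIF. The labels do not say whether the line is 1 clone or whether the immunoprecipitations came from separate cultures, so p-values measure only the spread between these immunoprecipitations. The OCT4 sites come from published ChIP-seq data of another ESC culture and were not measured in these cells.

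Acetylation of lysine 27 on histone H3 is written by the p300 and CBP acetyltransferases, removed by histone deacetylases, and marks nucleosomes beside active enhancers and promoters. OCT4 is a POU-domain transcription factor that binds an octamer sequence, often next to SOX2, and recruits coactivators. In ESCs, enhancers of pluripotency genes often lie in clusters, in which stretches bound by OCT4 alternate with acetylated stretches where no binding was called.

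The octamer searched for was ATGCAAAT, on both strands, in the central 300 bases of each peak. It was found in 14 of the 1338 neighbouring peaks (1.05%), against 0.912% of 8551 far distal peaks (no OCT4 site of their own and no OCT4-site peak within 10 kb), 2.53% of 3444 distal OCT4-site peaks and 1.13% of all 26457 peaks above the threshold. In windows of 2 kb the shares were 10.8%, 9.67%, 20.7% and 10.5%. These windows are longer than the median neighbouring peak, at 616 bp. At short gaps a match can thus lie in the adjacent OCT4-site peak. By these letters the neighbouring peaks were closer to far distal peaks than to peaks with a site. A match is a description of the sequence and not a binding site.

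Central sequences of 5 peaks are shown to let a peak with a site be read beside its neighbour, to show 2 of the neighbours that hold the octamer although no site was called in them, and to show a neighbour in the locus with the largest fall. All are 300 bases of the GRCm38 plus strand (RefSeq assembly), with coordinates counted from 1. Capitals mark any match, on either strand, to the octamer or to 4 other short motifs, which are the SOX letters CATTGT, the ESRRB letters TCAAGGTCA, the KLF letters GGGTGTGG and the STAT letters TTCCNGGAA. The first sequence is an OCT4-site peak in an intron of Lifr, the receptor for LIF, and the second is its neighbour, 6455 bp away in the same gene.
Lifr, OCT4-site peak, chr15:7115642-7115941: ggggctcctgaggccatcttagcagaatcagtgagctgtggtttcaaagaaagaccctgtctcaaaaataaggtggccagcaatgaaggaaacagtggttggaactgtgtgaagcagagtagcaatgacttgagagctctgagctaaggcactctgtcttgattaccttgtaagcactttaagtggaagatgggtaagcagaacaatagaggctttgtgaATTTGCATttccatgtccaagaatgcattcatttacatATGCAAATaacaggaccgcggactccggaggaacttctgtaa
Lifr, neighbouring peak, chr15:7107930-7108229: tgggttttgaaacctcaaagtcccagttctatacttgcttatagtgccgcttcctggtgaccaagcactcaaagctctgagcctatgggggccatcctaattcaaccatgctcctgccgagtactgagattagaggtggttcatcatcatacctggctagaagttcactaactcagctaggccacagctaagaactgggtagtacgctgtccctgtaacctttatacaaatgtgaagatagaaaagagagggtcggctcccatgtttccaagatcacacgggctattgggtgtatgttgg
The OCT4-site peak holds 2 octamers, 1 on each strand, and its neighbour holds none of the 5 motifs. The next pair are neighbouring peaks in an intron of Tet1, a 5-methylcytosine dioxygenase, and in an intron of Gm28729 close to Rnf7, a subunit of cullin ubiquitin ligases. Both hold 1 octamer, and the Tet1 peak also holds the SOX letters.
Tet1, neighbouring peak, chr10:62902812-62903111: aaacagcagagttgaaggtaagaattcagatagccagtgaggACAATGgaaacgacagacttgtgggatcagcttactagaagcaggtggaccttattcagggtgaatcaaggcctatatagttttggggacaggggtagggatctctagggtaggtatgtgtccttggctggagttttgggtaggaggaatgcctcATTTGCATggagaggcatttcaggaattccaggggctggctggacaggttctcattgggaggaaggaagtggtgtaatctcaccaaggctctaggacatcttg
Rnf7, neighbouring peak, chr9:96491684-96491983: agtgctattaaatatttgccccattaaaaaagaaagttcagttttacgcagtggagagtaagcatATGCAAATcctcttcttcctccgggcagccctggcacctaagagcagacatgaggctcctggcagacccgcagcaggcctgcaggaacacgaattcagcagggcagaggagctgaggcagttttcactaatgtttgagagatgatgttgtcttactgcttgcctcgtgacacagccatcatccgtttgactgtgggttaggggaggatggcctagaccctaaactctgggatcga
The last is a neighbouring peak in the intergenic DNA near Sox21, which encodes a SOX-family transcription factor. Its central window holds none of the 5 motifs.
Sox21, neighbouring peak, chr14:118225597-118225896: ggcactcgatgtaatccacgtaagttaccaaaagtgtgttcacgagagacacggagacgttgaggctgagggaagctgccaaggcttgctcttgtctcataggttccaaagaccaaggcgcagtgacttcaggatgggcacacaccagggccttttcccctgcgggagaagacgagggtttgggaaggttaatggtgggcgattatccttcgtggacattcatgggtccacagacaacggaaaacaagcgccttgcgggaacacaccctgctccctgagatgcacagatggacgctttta
The SOX letters were found in 12.1% of neighbouring, 12.5% of far distal, 14.3% of distal OCT4-site and 10.1% of all peaks. The ESRRB letters were in 1.49%, 1.1%, 1.22% and 0.839% of these sets, the KLF letters in 2.99%, 3.38%, 2.9% and 3.13%, and the STAT letters in 0.972%, 1.43%, 1.22% and 1.25%.

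The libraries held between 31634480 and 39547452 reads, and the median neighbouring peak above the threshold held 56 to 72 reads in the uninduced and 32 to 42 in the IAA libraries, a counting error of 11.8% to 17.7%. Neighbouring peaks took 0.299% to 0.315% of all reads in the uninduced libraries and 0.164% to 0.208% in the IAA libraries. Over all 26457 peaks the median log2 change was -0.55, with medians from -0.48 in lone far distal peaks to -0.74 in distal OCT4-site peaks. RPKM is scaled to all reads of a library, so reads moving between peaks and the rest of the genome cannot be told apart from a change at each peak. Changes are therefore given as measured and also relative to the median peak or to other distal peaks of the same library. IAA replicate 3 had the lowest median in each set of peaks above the threshold. All 6 stem cell markers examined (Nanog, Sox2, Esrrb, Klf4, Zfp42 and Tfcp2l1) had a peak at their start, at 5.52 to 10.5 RPKM in uninduced cells. Of 9 markers of trophoblast, primitive endoderm and neural cells, 3 (Gata6, Pax6 and Sox1) had one, at 1.48 to 1.74 RPKM.

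H3K27ac at the neighbouring peaks was lower after IAA. The library median of log2(RPKM + 0.1) was 1.55, 1.49 and 1.49 in uninduced replicates 1 to 3 and 0.99, 0.92 and 0.66 in IAA replicates 1 to 3. The mean was 1.51 ± 0.0329 before and 0.86 ± 0.175 after IAA (SD, n = 3 each), which is a change of -0.65. The 3 IAA libraries lay below the 3 uninduced libraries, and the exact two-sided permutation test over 20 labellings gave p = 0.1, the smallest p the design allows. Tested peak by peak in a limma fit of all 26457 peaks, 1072 neighbouring peaks were lower after IAA at an adjusted p under 0.05, which is 80.1% of them, where 68.2% of all peaks were lower. Such shares also rise with the level of a peak, and neighbouring peaks were stronger before IAA (median 2.73 RPKM, against 2.44 over all peaks). No neighbouring peak was higher (0 by limma, against 0.0605% of all peaks), and 23 had a positive change that did not pass the test. As peaks were called on uninduced reads, regions acetylated only after IAA could not be counted. At 80% of the neighbouring peaks all IAA libraries lay below all uninduced libraries, against 71.2% of all peaks.

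Few neighbouring peaks moved relative to the median peak. With each library centred on its median, limma called 52 of them lower and 4 higher. The background for these calls was 1.97% lower and 0.544% higher over all peaks, and 3.89% of neighbouring peaks were among the lower. The median fitted change was -0.64 in neighbouring and -0.55 in all peaks, and the comparisons with other distal peaks measure this difference within libraries.

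Neighbouring peaks fell more than distal peaks farther from OCT4-site peaks. The median of the 8551 far distal peaks was 1.08 ± 0.0238 before and 0.57 ± 0.174 after IAA (SD, n = 3 each), which is a change of -0.51, and 56.7% of these peaks were lower by limma. Within each library, the median of neighbouring peaks exceeded that of far distal peaks by 0.45, 0.40 and 0.44 before IAA and by 0.29, 0.28 and 0.28 after it. The difference shrank by 0.15 on the log2 scale in the mean, from 0.43 ± 0.0237 to 0.28 ± 0.00861 (SD, n = 3), with no overlap between conditions (exact permutation p = 0.1, the smallest possible).

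Neighbouring peaks have another peak nearby by rule, and many far distal peaks do not. The closer comparison is with the 4825 grouped far distal peaks, which have at least 1 other peak within 10 kb but none with an OCT4 site. Their median change was -0.54 and 63.8% were lower by limma, while of the 3726 lone far distal peaks, with no peak within 10 kb, 47.6% were lower. The excess of neighbouring over grouped far distal peaks was 0.26, 0.23 and 0.25 in the uninduced and 0.15, 0.12 and 0.13 in the IAA libraries. The mean excess was 0.25 ± 0.0144 before and 0.13 ± 0.0125 after (SD, n = 3), a change of -0.11 with no overlap between conditions (exact permutation p = 0.1).

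**Figure D1:**
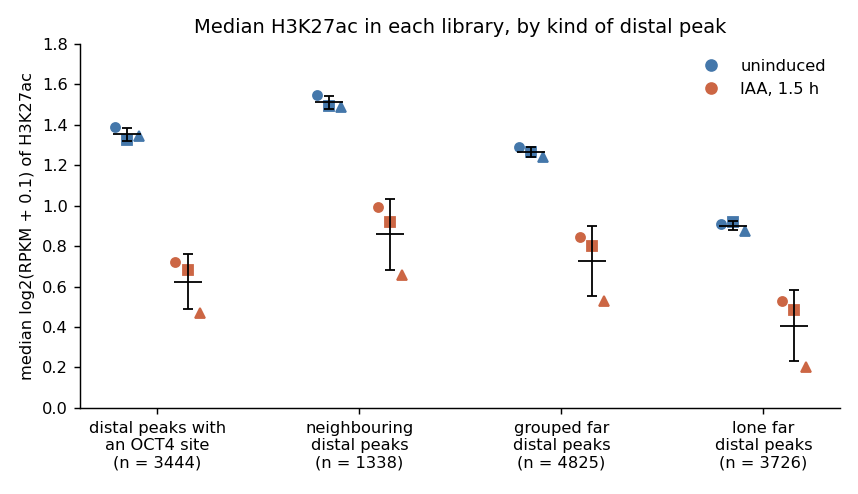
Median log2(RPKM + 0.1) of H3K27ac in each of the 6 libraries (circle, square and triangle for replicates 1, 2 and 3) for 4 kinds of distal peak, with the mean and SD over 3 libraries in black and the number of peaks under each name. IAA libraries lie below uninduced libraries in every kind, and neighbouring peaks start highest, at 1.51, and end at 0.86.

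As a set, distal OCT4-site peaks fell more than neighbouring peaks, and each neighbouring peak is set against its own OCT4-site peak further below. In the 3444 distal OCT4-site peaks the median was 1.35 ± 0.0318 before and 0.62 ± 0.136 after IAA (SD, n = 3), which is a change of -0.73, and 85.3% were lower by limma. Neighbouring peaks exceeded them by 0.16 ± 0.0125 before and 0.23 ± 0.0402 after IAA (SD, n = 3), and the change in the difference was 0.08, with the 3 IAA libraries all above the uninduced ones (exact permutation p = 0.1). The falls were thus ordered from distal OCT4-site to neighbouring to far distal peaks. With only peaks within 5 kb of an OCT4-site peak counted as neighbouring, the first step was 0.016 and the conditions overlapped (exact permutation p = 0.6). Neighbours at shorter gaps were also stronger before IAA, and this comparison was not matched for level.

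Uninduced H3K27ac also differed between these sets, with a median of 2.73 RPKM at neighbouring, 2.44 at distal OCT4-site, 2.28 at grouped far and 1.99 at far distal peaks, and among distal peaks without a site the stronger ones fell more. When sets were compared within 10 groups of like uninduced RPKM, the differences in change were -0.09 against far distal peaks, -0.09 against grouped far distal peaks and 0.13 against distal OCT4-site peaks. In each, the conditions did not overlap. The groups were cut on the same uninduced values that enter the change, so differences before IAA are small within them by construction. Chance spread in those values also enters both the level and the change. This limit holds for every grouping by uninduced RPKM in this report. The first was smaller, and the last larger, than without grouping by more than 1.5 times. Median GC content (50.2% at neighbouring and 50.5% at far distal peaks) and median length (616 bp and 639 bp) were similar, and of the bases of the median peak 13.6% and 14.2% were soft-masked repeats.

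The change of neighbouring peaks became smaller as the gap to the OCT4-site peak grew. The gap of the 1338 peaks ranged from 207 to 9995 bp, with a median of 5058 bp and quartiles of 2219 and 7455 bp. The median fitted log2 change was -0.72 in the 188 peaks with a gap under 1 kb, -0.70 in the 127 at 1 to 2 kb, -0.65 in the 107 at 2 to 3 kb, -0.66 in the 239 at 3 to 5 kb and -0.61 in the 677 at 5 to 10 kb. The share that was lower by limma was 88.8%, 83.5%, 85%, 79.9% and 76.4% in these classes. The series was not strictly ordered, since the classes at 2 to 3 kb and at 3 to 5 kb lay in the opposite order to their gaps in the median change.

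The nearest class was compared with the farthest within each library. Peaks with a gap under 1 kb had library medians of 1.84, 1.79 and 1.81 before and 1.22, 1.13 and 0.86 after IAA, and those at 5 to 10 kb had 1.37, 1.34 and 1.35 before and 0.89, 0.83 and 0.56 after. The nearest class was higher by 0.46 ± 0.0142 before and by 0.31 ± 0.0203 after IAA (SD, n = 3), a change of -0.15 with no overlap between conditions (exact permutation p = 0.1). The nearest peaks thus started higher and lost more. Within 10 groups of like uninduced RPKM the change in this difference was -0.08, again apart in all libraries, with the limit given above for such groups.

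**Figure D2:**
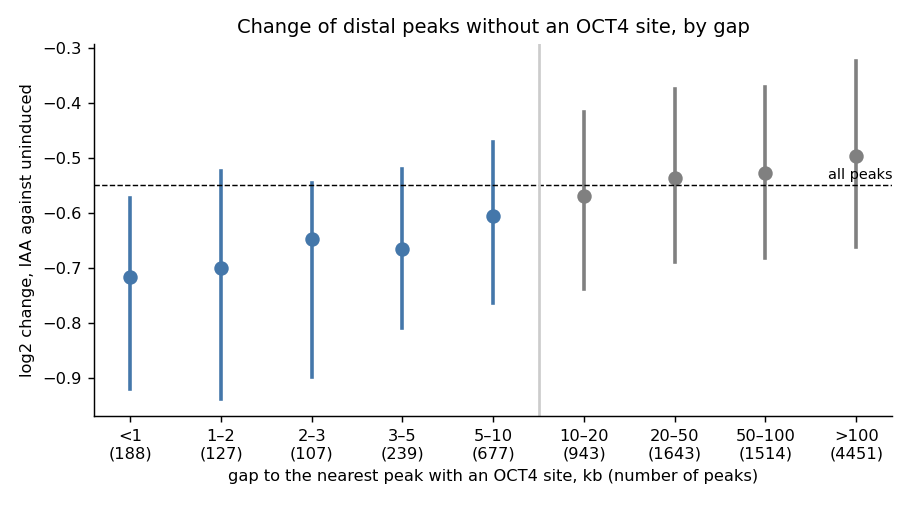
Median fitted log2 change of H3K27ac after IAA (points) with quartiles over peaks (bars) for distal peaks without an OCT4 site, by gap to the nearest OCT4-site peak, with the number of peaks in each class. The blue classes are the neighbouring peaks and run from -0.72 to -0.61, the grey classes beyond 10 kb run from -0.57 to -0.50, and the dashed line is the median of all peaks.

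The trend went on past 10 kb without a step. Distal peaks with no site at 10 to 20 kb had a median change of -0.57, those at 20 to 50 kb -0.54, those at 50 to 100 kb -0.53, and the 4451 beyond 100 kb -0.50, with 68.4%, 61%, 58.7% and 52% lower by limma. Among grouped far distal peaks alone the medians were -0.59, -0.56, -0.55 and -0.53 in the same classes. On the inner side of the limit, the 119 peaks at 9 to 10 kb had a median change of -0.59 and 72.3% were lower, and on the outer side the 114 at 10 to 11 kb had -0.60 and 73.7%. The neighbouring peak closest to the limit, at a gap of 9995 bp in Dlgap1, a postsynaptic scaffold gene, went from 1.58 ± 0.324 to 1.14 ± 0.125 RPKM (SD, n = 3; log2 change -0.42, limma adjusted p = 0.0868). The first peak outside, at 10013 bp and nearest to Aldh1a3, a retinal dehydrogenase gene, went from 3.26 ± 0.643 to 2.2 ± 0.398 RPKM (SD, n = 3; log2 change -0.54, limma adjusted p = 0.0194).

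The uninduced level fell along with the gap, from a median of 3.34 RPKM under 1 kb to 2.45 at 5 to 10 kb and 1.90 beyond 100 kb. The distal peaks without a site were therefore also divided into 4 equal groups by uninduced RPKM, with the same limit. In the strongest group, above 2.76 RPKM, the median change was -0.75 in the 133 peaks with a gap under 1 kb, -0.78 at 1 to 2 kb, -0.70 at 2 to 3 kb, -0.71 at 3 to 5 kb and -0.66 at 5 to 10 kb, and it was -0.59 in the 813 peaks beyond 100 kb. In the next group it was -0.64 under 1 kb, -0.68 at 1 to 2 kb, -0.59 at 2 to 3 kb, -0.68 at 3 to 5 kb and -0.60 at 5 to 10 kb. It was -0.55 beyond 100 kb in that group. Within 10 kb the classes were not strictly ordered by gap in any of the 4 groups. The group from 1.67 to 2.06 RPKM had a median of -0.68 in 13 peaks under 1 kb, -0.60 in 15 at 1 to 2 kb, -0.61 in 6 at 2 to 3 kb, -0.48 in 27 at 3 to 5 kb and -0.53 in 127 at 5 to 10 kb. Its far classes ran from -0.54 to -0.50, so the fall at 3 to 5 kb was smaller than in any of them. In the weakest group the medians were -0.50 in 6 peaks under 1 kb, -0.44 in 9 at 1 to 2 kb, -0.43 in 12 at 2 to 3 kb, -0.48 in 23 at 3 to 5 kb and -0.51 in 90 at 5 to 10 kb. Within 10 kb the fall thus did not shrink with the gap among these peaks, while the far classes ran from -0.43 to -0.36. The share lower by limma followed level too, at 23.6% in the weakest and 84.7% in the strongest group beyond 100 kb.

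**Figure D3:**
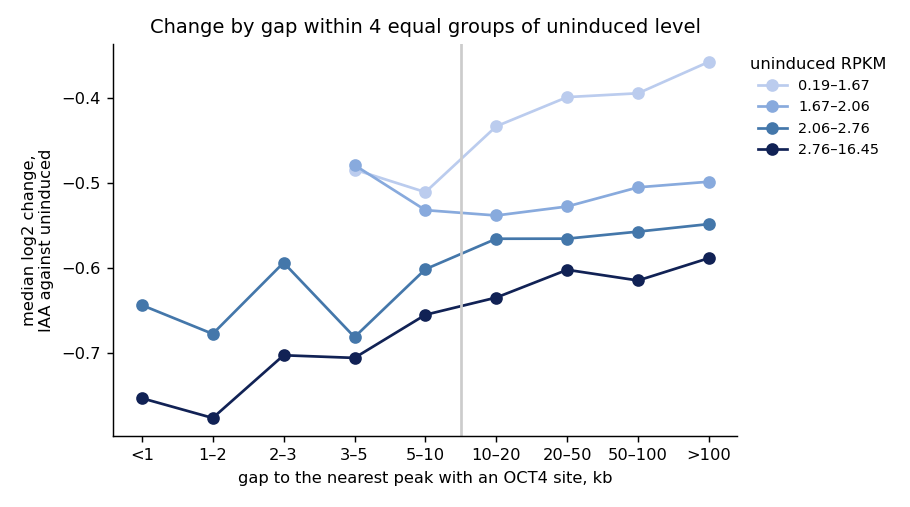
Median fitted log2 change by gap to the nearest OCT4-site peak in 4 equal groups of distal peaks without a site, split by uninduced RPKM (the legend gives the range of each group), for classes of at least 20 peaks. The vertical line is the limit of 10 kb for neighbouring peaks. The strongest group lies lowest and goes from -0.75 under 1 kb to -0.59 beyond 100 kb. In none of the 4 groups are the classes within 10 kb strictly ordered by gap.

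The number and placing of the OCT4-site peaks made less difference. Around 838 neighbouring peaks there was 1 OCT4-site peak within 10 kb and around 500 there were 2 or more, with a median fitted change of -0.63 and -0.67. The second kind was higher by 0.37 ± 0.00998 before and 0.26 ± 0.0236 after IAA (SD, n = 3), a change of -0.10 without overlap (exact permutation p = 0.1). The 107 peaks flanked on both sides differed from the 1231 with an OCT4-site peak on 1 side by a change of -0.06 (exact permutation p = 0.1). Within 10 groups of like uninduced RPKM, these values were -0.01 (exact permutation p = 0.3) and -0.00062 (exact permutation p = 1), so among peaks of like level both differences were near 0 and overlapped between conditions.

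Median changes were also close to each other across kinds of position. Of the neighbouring peaks above the threshold, 647 were intergenic, 545 intronic, 97 overlapped another exon and 49 an untranslated region, with median changes of -0.63, -0.65, -0.69 and -0.62. For 1059 the nearest OCT4-site peak was distal and for 279 it was at a promoter, with medians of -0.65 and -0.63. By chromosome the median ranged from -0.73 on chromosome 9 (63 peaks) to -0.56 on chromosome 17 (53 peaks), apart from the 6 peaks on chromosome Y, at -0.04. These differences were not tested.

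Each neighbouring peak was also set against its own nearest OCT4-site peak, in the 1312 cases where both were above the threshold, with 1024 different OCT4-site peaks. The median change was -0.65 in the neighbours and -0.74 in the OCT4-site peaks, and the neighbour fell less in 843 cases (64.3%), from 56.2% of 185 pairs under 1 kb to 69.4% of 664 pairs at 5 to 10 kb. The median difference within a pair was -0.18 ± 0.0271 before and -0.11 ± 0.0453 after IAA (SD, n = 3), a change of 0.08. Here the libraries of the conditions overlapped (exact permutation p = 0.2), with IAA replicate 3, at -0.15, at the level of uninduced replicate 2.

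The changes of the 2 members of a pair were correlated across pairs, with Pearson's r of 0.436 over all pairs, 0.591 under 1 kb and 0.326 at 5 to 10 kb. This is a correlation across peaks that share libraries, and peaks are not independent replicates. For comparison, far distal peaks and their nearest peak of any position without a site gave an r of 0.474 over 4672 pairs, 0.587 under 1 kb and 0.272 at 5 to 10 kb, and the far distal peak fell less than the other in 50.9%. Correlations at short gaps were thus close to each other in pairs with and without an OCT4-site peak. The share of 50.9% is no measure for the 64.3% beside OCT4-site peaks. Far distal peaks that are each other's nearest enter in both orders, which pulls the 50.9% toward an even split.

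**Figure D4:**
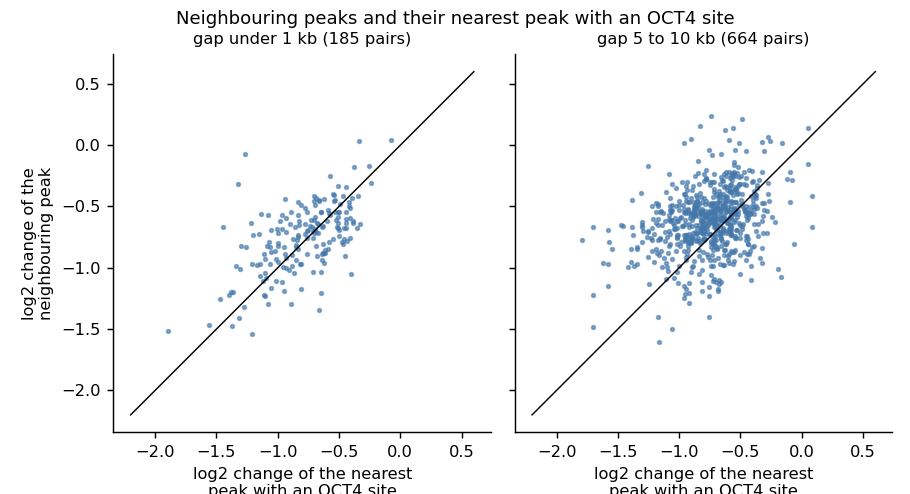
Fitted log2 change of each neighbouring peak (vertical) against that of its nearest OCT4-site peak (horizontal), for gaps under 1 kb (185 pairs) and 5 to 10 kb (664 pairs), with the line of equal change. Points above the line, where the neighbour fell less, are 56.2% in the first panel and 69.4% in the second, and the cloud is narrower at the short gap.

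The neighbouring peaks of highest uninduced level in each gap class behaved differently from each other. Under 1 kb it was an intergenic peak at chr4:141572210-141573956 nearest to Fblim1, a filamin-binding adaptor, with 9.09, 8.67 and 8.9 RPKM before and 6.83, 6.79 and 5.5 after IAA. Its log2 change of -0.48 (SE 0.144, limma adjusted p = 0.00982) was smaller than that of the median peak. At 1 to 2 kb and 3 to 5 kb they were 2 peaks close to Rnf7, in introns of Gm28729, which fell from 7.56 ± 1.09 to 4.53 ± 0.738 and from 8.88 ± 0.926 to 5.36 ± 1.43 RPKM (SD, n = 3). The Rnf7 peak whose sequence holds an octamer is in the same locus, 6054 bp from its OCT4-site peak, and fell from 6.65 ± 0.412 to 3.93 ± 0.792 RPKM (SD, n = 3; log2 change -0.76, limma adjusted p = 0.00169).

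The strongest at 5 to 10 kb, and the strongest of the neighbouring peaks named here, showed no fall. This peak, chr11:3152474-3153022 in an intron of Sfi1, a centrosomal protein gene, had 14.4, 15.9 and 15.4 RPKM before and 16.9, 16 and 13.5 after IAA, so the conditions overlapped (log2 change 0.02, limma adjusted p = 0.908). With centred libraries its change was 0.57 (limma adjusted p = 0.00187). It is 1 of the 4 neighbouring peaks that were higher with centred libraries. The others, named after their values were seen, lay nearest to Gm13212 and Zfp982 on chromosome 4 and to Gm21748 on chromosome Y, at 2.23, 3.24 and 3.48 RPKM before and 2.36, 3.53 and 3.58 after IAA. Soft-masked repeats made up 16.2%, 35.9%, 25.4% and 71.3% of the Sfi1, Gm13212, Zfp982 and Gm21748 peaks. Whether reads of these peaks are split between like copies elsewhere in the genome was not tested, and these values are uncertain.

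The largest fall was at Sox21. The peak chr14:118233999-118234839 overlaps an untranslated region of the gene and lies 2442 bp from the nearest OCT4-site peak. It held 8.85, 8.5 and 7.66 RPKM before and 3.04, 2.47 and 2.03 after IAA (log2 change -1.71, SE 0.165, limma adjusted p = 8.97e-06). Its OCT4-site neighbour fell by much the same, from 8.18 ± 0.632 to 2.46 ± 0.339 RPKM (SD, n = 3; log2 change -1.70). Of 4 neighbouring peaks in the locus, 3 were lower also with centred libraries. The intergenic peak whose sequence is shown, chr14:118225330-118226163, went from 8.38 ± 0.156 to 2.95 ± 0.457 RPKM (SD, n = 3; log2 change -1.49). Another, 8001 bp from an OCT4-site peak, went from 6.08 ± 0.868 to 2.55 ± 0.328 RPKM (SD, n = 3; log2 change -1.22).

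The other 4 of the 5 largest falls were in weaker peaks, with log2 changes of -1.62 to -1.60. They lay in an intron of Prtg, an immunoglobulin-superfamily receptor, and in intergenic DNA nearest to G6pd2, Usp9x, a deubiquitinase, and Kat2b, which encodes the acetyltransferase PCAF. The Kat2b peak went from 4.15, 4.47 and 4.57 to 1.85, 1.61 and 0.874 RPKM (limma adjusted p = 4.57e-05). The G6pd2 peak, far from any coding gene, holds an octamer and went from 2.48 ± 0.481 to 0.743 ± 0.124 RPKM (SD, n = 3), at a median of 23 reads per library. The 3 largest positive changes were near Fhit, Akr1e1 and Gm10139, at 0.24, 0.21 and 0.17, on a median of 8 to 17 reads per library, and none passed the test (limma adjusted p = 0.469, 0.514 and 0.647).

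Peaks that lie within 10 kb of each other were joined into loci, and the 1338 neighbouring peaks fell into 932 loci, of which 658 held 1 and 81 held 3 or more, at most 7. Besides Sox21, 3 loci had 2 or more neighbouring peaks that were lower with centred libraries, and they were named after their values were seen. Near Tnfsfm13, 3 of 3 neighbouring peaks were lower, the closest 45431 bp from Sox15, which encodes a SOX-family factor, with changes of -1.29, -1.27 and -1.19. Near Adam19, a membrane metalloprotease, 2 of 4 were, with -1.16 and -1.23. Near Eif2d, a translation initiation factor, both were, with -1.17 and -1.19, although these peaks lay 8009 and 9249 bp from the OCT4-site peak.

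Some neighbouring peaks stand among many OCT4-site peaks, and the 4 with 5 or 6 of them within 10 kb were named after their values were seen. A peak in an intron of Tet2, another 5-methylcytosine dioxygenase gene, has 5, the closest 233 bp away, and went from 5.41, 4.6 and 4.36 to 1.56, 2.35 and 1.05 RPKM (log2 change -1.54, SE 0.215, limma adjusted p = 6.73e-05). Peaks near Tmem17 and Spen have 6 and one near Cdh1, the E-cadherin gene, has 5. Their changes were -0.67, -1.05 and -0.71 (limma adjusted p = 0.00261, 0.000639 and 0.0024). Their libraries did not overlap between conditions, and their falls still covered a wide range.

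Neighbouring peaks close to naive pluripotency genes were all lower after IAA. Of 21 genes in this list, 11 had a neighbouring peak within 50 kb of a transcript start. All 21 such peaks were lower by limma, where 80.1% of neighbouring and 68.2% of all peaks were, with a median change of -0.94 and a range of -1.37 to -0.56, against a median of -0.64 over neighbouring peaks and -0.55 over all peaks. Their median uninduced level was 3.25 RPKM, against 2.73 over neighbouring peaks, and in the strongest of the 4 level groups 92.9% to 96.9% of neighbouring peaks were lower in each gap class. With centred libraries 2 of the 21 were lower, where 3.89% of neighbouring and 1.97% of all peaks were. Around Zfp42, which encodes the zinc finger protein REX1, 4 peaks changed by -1.03, -0.95, -1.21 and -1.28. The largest fall of the list was at Tbx3, a T-box factor downstream of LIF, in a peak 1374 bp from its OCT4-site peak. It went from 4.57, 5.28 and 4.87 to 2.37, 1.98 and 1.32 RPKM (log2 change -1.37, limma adjusted p = 6.19e-05). The other peaks near Tbx3 changed by -0.80 and -0.56, and the latter was the smallest fall of the list.

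Peaks of this list differed in how far they fell. In an intron of Tfcp2l1, a self-renewal factor, the peak chr1:118649786-118650231 held 6.71, 5.9 and 6.79 RPKM before and 3.89, 3.8 and 2.46 after IAA (log2 change -0.94, limma adjusted p = 0.000585). Krüppel-like factor genes Klf2 and Klf4 had peaks that fell from 3.88 ± 0.521 to 1.93 ± 0.689 RPKM and from 2.08 ± 0.199 to 1.02 ± 0.322 RPKM (SD, n = 3; log2 changes of -1.02 and -0.996), and Klf5 had 2 peaks, at -0.59 and -0.85. Another peak near Klf2 changed by -0.75. The Klf4 peak lies 45176 bp from the gene's start. The peak nearest to Nanog, 36785 bp from its start and 6046 bp from the OCT4-site peak, went from 2.76, 3.12 and 3.14 to 2.12, 2.15 and 1.73 RPKM (log2 change -0.57, limma adjusted p = 0.00979). With centred libraries the change at Nanog was -0.02, so it fell with the median peak. At Esrrb, an orphan nuclear receptor gene, the change was -0.62 as measured and -0.06 centred.

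**Figure D5:**
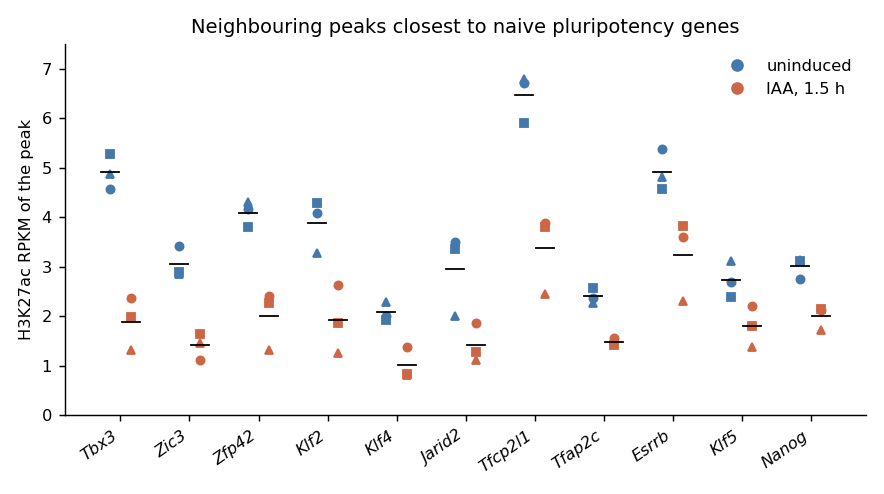
H3K27ac in RPKM in each library (circle, square and triangle for replicates 1, 2 and 3; black lines are means) at the neighbouring peak closest to each of 11 naive pluripotency genes, ordered by log2 change. At all 11, the IAA values lie below the uninduced values, from -1.37 at Tbx3 to -0.57 at Nanog.

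In the list of other stem cell genes, 11 of 29 genes had a neighbouring peak, and 12 of 13 peaks, the Nanog peak among them, were lower by limma, beside 80.1% of neighbouring and 68.2% of all peaks (median -0.87, against -0.64 over neighbouring peaks). The Tet2 peak above had the largest change. A peak in an exon of Gdf3, a TGF-beta family ligand, is also the nearest to Dppa3, which protects maternal DNA methylation, and went from 6.37, 5.59 and 5.19 to 2.65, 2.39 and 1.82 RPKM (log2 change -1.29, limma adjusted p = 3.99e-05). The 2 peaks at Tet1 changed by -0.97 and, in the one whose sequence holds an octamer, by -0.83 (3.5 ± 0.582 to 1.91 ± 0.115 RPKM, SD, n = 3). Peaks at Mycn, a proto-oncogene of the MYC family, and Trim28, a corepressor of retroelements, changed by -0.96 and -0.92. In an intron of Lrrc2, 19189 bp from Tdgf1, a NODAL coreceptor gene, the change was -0.53. The peak that did not pass the test was 1 of 2 at Nanos3, a germ cell RNA-binding protein gene (log2 change -0.65, limma adjusted p = 0.0568).

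Peaks near signalling genes were lower about as often as other neighbouring peaks. Of 37 genes for LIF, FGF, Nodal, BMP and Wnt signalling, 10 had neighbouring peaks, and 14 of 17 peaks were lower by limma, beside 80.1% of neighbouring and 68.2% of all peaks. Their median was -0.59, against -0.64 over neighbouring and -0.55 over all peaks. The peak at Spry2, a feedback inhibitor of FGF signalling, fell most, from 6.64, 5.73 and 5.11 to 3, 2.71 and 2.35 RPKM (log2 change -1.09, limma adjusted p = 0.000108). At Lifr, the neighbour shown above went from 1.57 ± 0.183 to 0.911 ± 0.293 RPKM (SD, n = 3; log2 change -0.76, limma adjusted p = 0.013) and its OCT4-site peak from 2.46 ± 0.288 to 1.26 ± 0.254 RPKM (log2 change -0.92, limma adjusted p = 0.00186).

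The smallest changes of this list were at Nodal, Pim1 and Smad7. An intronic peak of Nodal, the TGF-beta family ligand, went from 6.98, 6.18 and 5.13 to 5.83, 4.46 and 3.41 RPKM, with overlap between conditions (log2 change -0.43, limma adjusted p = 0.0428). It lies 1006 bp from the Nodal start, just past the limit of 1 kb. An intergenic peak near Nodal changed by -0.49 without overlap (limma adjusted p = 0.0276). The peak nearest to Pim1, a kinase gene induced by STAT3, had a change of -0.22 (limma adjusted p = 0.257), and 2 peaks at Smad7, an inhibitor of TGF-beta signalling, had -0.18 and -0.29 (limma adjusted p = 0.352 and 0.122). With centred libraries all of these were positive, at 0.12 for the intronic Nodal peak, 0.33 for Pim1 and 0.37 for the first Smad7 peak, and none of these 3 passed the test. Peaks near Etv5 and Socs3 changed by -0.67 and -0.59, and one over an untranslated region of Bcl2l1, 44500 bp from Id1, by -0.72. The 3 peaks near Spred2 ranged from -0.94 to -0.59, and the 4 at Fgfr1, the FGF receptor gene, from -1.03 to -0.49.

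Few neighbouring peaks lay near genes of later states. In the list of formative and primed factors, 2 of 14 genes had one, and both peaks were lower (at Foxd3, a forkhead factor, -0.85, and one that serves both Fgf4 and Fgf15, FGF ligands, -0.66). In the list of trophoblast and differentiation genes, 3 of 17 had one, and 4 of 4 peaks were lower. These were 2 near Gata3 (-0.87 and -0.65), 1 near Tfap2a (-0.63), and 1 in an intron of Fdft1 that lies 43525 bp from Gata4 (-0.79). The 3 listed genes encode transcription factors. With 80.1% of neighbouring and 68.2% of all peaks lower, counts this small say little about either list. None of these 6 peaks was higher by limma, and with centred libraries 0 of them were lower.

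The 14 neighbouring peaks with an octamer in the central 300 bases were mostly lower after IAA. By limma 13 of 14 were lower, beside 80.1% of neighbouring and 68.2% of all peaks, with a median change of -0.68 against -0.64 over neighbouring peaks, and the peak nearest to Hsp90aa1, a chaperone gene, did not pass the test (log2 change -0.30, with no overlap of libraries, limma adjusted p = 0.0958). Those with the SOX, ESRRB, KLF and STAT letters numbered 162, 20, 40 and 13, with median changes of -0.64, -0.66, -0.63 and -0.58. The groups are small and were not tested against the rest.

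The 189 neighbouring peaks below the threshold held a median of 1.00 read per library, and 103 of them were at 1 read in all libraries, the lowest value in the files. Repeats made up 89.9% of the bases of the median peak among them. Their median change was -0.02, and no fall could be detected at this depth.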

How the data were processed

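H3K27ac ChIP-seq of 6 libraries was used, with groups and replicate numbers from the sample labels. The authors aligned reads to GRCm38 (mm10) with Bowtie2 2.3.4.3, called peaks with MACS2 on the pooled uninduced reads and deposited RPKM values made with DiffBind, per library and pooled (versions of the last 2 tools are not given in the sources used here). The pooled RPKM columns equal the mean of the 3 libraries and served only for the threshold. The labels name the antibody as ab4792, the methods as ab4729. No input or spike-in was used here. Of the columns with values per sample, 0 were left out. All values are whole multiples of 1 read (within 0.01), from which library sizes were recovered. Intervals of counting error cover counting only.

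The test took all peaks whose pooled RPKM reached 0.5 before or after IAA, on the scale log2(RPKM + 0.1), which understates changes of weak peaks. It was limma 3.58.1 in R 4.3.3 (trend and robust), Benjamini-Hochberg adjusted over all 26457 peaks at 0.05, and tested on simulated data. Library medians and within-library differences were compared with an exact permutation test (two-sided, 20 labellings, smallest p 0.1). Starts and annotation are from GENCODE vM21, coordinates as in the files, and sequence from RefSeq GRCm38. A gap class includes its lower limit.

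Peaks named are the strongest per gap class, the 5 largest falls, the 3 largest positive changes, those closest to the 10 kb limit, and for each listed gene the neighbouring peak nearest to its starts within 50 kb, with the nearest OCT4-site peaks. Others are said to be named after their values were seen. Members and lists were chosen with earlier results of these data known. Alternatives covered pseudocount, threshold, scaling, window, distal limit, strata, limma settings, replicate block and each library left out. Counting each locus once and leaving out repeat-rich peaks were added after seeing the data. The sequence of 1 peak is not reported here.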

Additional observations from a re-analysis of the deposited data

How the results depend on the processing

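The library medians of neighbouring peaks, their difference from other distal peaks and the difference between the nearest and farthest gap kept their direction under the alternatives run for each, which were, where they apply, pseudocount, threshold, window, distal limit, means over peaks, grouping by level, GC content or length, each library left out and the 2 alternatives added later. Scaling, limma settings and the replicate block were run for the count of lower peaks and for single peaks. Leaving out 1 library gave changes of -0.72 to -0.55 for the median, -0.16 to -0.14 against far distal peaks, -0.12 to -0.11 against grouped far distal peaks, 0.059 to 0.099 against distal OCT4-site peaks, -0.16 to -0.14 for the nearest against the farthest gap and 745 to 1096 lower peaks (fewest without uninduced replicate 1). The number of lower peaks, 1072, was 686 at an adjusted p under 0.01, 52 with centred libraries and 47 with quantile normalization, both of which set the median peak of the libraries equal. Windows of 5 kb and 20 kb gave -0.20 and -0.11 against far distal, -0.17 and -0.075 against grouped far distal and 0.016 (exact permutation p = 0.6) and 0.12 against distal OCT4-site peaks, and at 5 kb the difference from the own OCT4-site peak was 0.036. Among peaks of like uninduced RPKM these values were -0.089, -0.086 and 0.13, and the nearest against the farthest gap gave -0.083, or -0.12 among peaks of like GC content. With no threshold the difference from far distal peaks was -0.11. Chosen after seeing the data, counting each locus once gave -0.14 against far distal peaks and 0.067 against distal OCT4-site peaks, and leaving out peaks that were mostly soft-masked gave -0.13 for the nearest against the farthest gap.

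The difference between several and 1 OCT4-site neighbour was -0.067 with no threshold, -0.048 at 5 kb, -0.054 at 20 kb, -0.055 with means over peaks, -0.012 within RPKM groups, -0.071 within GC groups and -0.065 within length groups. For flanked peaks it was -0.079 with a pseudocount of 0.5, -0.11 with no threshold, -0.087 at 5 kb, -0.089 with no start within 2.5 kb, -0.093 with coding starts only, -0.00062 within RPKM groups, -0.13 within GC groups and -0.10 within length groups. The cause of these shifts was not tested.

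With centred libraries and with quantile normalization, changes turned positive at the peaks near Fblim1 (0.074 and 0.0014), Dlgap1 (0.13 and 0.17), Aldh1a3 (0.014 and 0.043), Tdgf1 (0.025 and 0.032), Pim1 (0.33 and 0.36), Fgfr1 (0.065 and 0.073), Nodal (0.12 for both) and Smad7 (0.37 and 0.39), and with quantile normalization at Nanog (0.00044). Without 1 library, the change ranged from -0.051 to 0.11 at Sfi1 and from -0.11 to 0.59 at Gm10139. With the replicate block 1094 neighbouring peaks were lower. Deviations of same-numbered libraries correlated by -0.09 to -0.01, which gave no sign of pairing by number. With so few libraries this cannot show that the samples were unpaired. With 3 libraries against 3, no exact test can go below p = 0.1, and peaks with few reads carry a large counting error.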
